A study of Mus musculus with 4 samples.

Results

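The genes described here encode subunits and inhibitors of the transcription factor NF-kB, though not the whole family. They were the 9 genes Rela, Relb, Rel, Nfkb2, Nfkbia, Nfkbib, Nfkbie, Nfkbiz and Bcl3, chosen by gene symbol, and all 18 probe sets that the array annotation assigns to 1 of these symbols were used. The arrays held 45037 probe sets, which covered 18193 genes with a probe set of their own. Expression was measured in mouse embryonic fibroblasts (MEF) on 4 Affymetrix arrays, 1 per group. The p65-/- cells lack p65, the protein encoded by Rela, and the p65+/+ cells carry it. All cells, p65+/+ cells included, had been infected with a pBabe vector for HRAS G12V, an oncogenic Ras, and hygromycin resistance. The groups p65-/-RasTumor and p65+/+RasTumor were cells taken from tumours in SCID mice with collagenase, returned to culture and kept in hygromycin for 2 weeks. The groups p65-/-Ras and p65+/+Ras were the cells from before tumour formation. SCID mice lack T and B lymphocytes but keep macrophages and natural killer cells, so a tumour there can hold host stroma and host innate immune cells. The labels do not say how many mice, tumours, cell lines or clones stand behind an array, and genotype cannot be told apart from line of cells. Since every group is a single array, no difference could be tested, and a gene called higher or lower is so only between the 2 arrays named.

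NF-kB is a family of dimeric factors that bind kB sites in DNA. RelA, RelB and c-Rel, encoded by Rela, Relb and Rel, can activate transcription, whereas Nfkb2 encodes the precursor p100, which is cut to the subunit p52. A further subunit gene, Nfkb1, is not among the genes chosen and is not reported here. The classical inhibitors IkB-alpha, IkB-beta and IkB-epsilon (Nfkbia, Nfkbib and Nfkbie) hold dimers in the cytoplasm until kinases mark them for degradation. IkB-zeta (Nfkbiz) and Bcl-3 (Bcl3) act in the nucleus, bound to NF-kB dimers on DNA. Several of these genes are themselves known targets of NF-kB, Nfkbia being the best known negative feedback loop in fibroblasts.

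The sequences around the transcription starts of 7 members were available from RefSeq (GRCm38.p6), in windows of 250 bases before to 50 bases after each start, 9 windows in all because Nfkb2 has 3 starts. They were searched on both strands for the kB consensus, a 10-base motif that opens with GGG and closes with CC. A match was found in 5 of the 7 genes and in 7 of the 9 windows, compared with 9.55% of 27025 genes and 8.46% of 32851 windows over the whole RefSeq table. The genes without a match in their window were Rela and Nfkbib. The windows of Nfkbia, Nfkbie and Bcl3 are printed because these genes were lower in p65-/-Ras than in p65+/+Ras cells, and the first window of Nfkb2 because it holds several matches while the gene stayed under 2-fold. Each is given 5' to 3' on the strand of the gene, and capitals mark the matches.
Nfkbia, chr12:55492598-55492897, minus strand: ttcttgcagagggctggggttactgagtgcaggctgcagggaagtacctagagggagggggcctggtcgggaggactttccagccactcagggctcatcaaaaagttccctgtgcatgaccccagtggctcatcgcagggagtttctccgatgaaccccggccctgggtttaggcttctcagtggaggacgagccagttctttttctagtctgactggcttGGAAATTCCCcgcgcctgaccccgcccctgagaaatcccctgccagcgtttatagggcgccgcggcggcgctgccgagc
Nfkbie, chr17:45555450-45555749, plus strand: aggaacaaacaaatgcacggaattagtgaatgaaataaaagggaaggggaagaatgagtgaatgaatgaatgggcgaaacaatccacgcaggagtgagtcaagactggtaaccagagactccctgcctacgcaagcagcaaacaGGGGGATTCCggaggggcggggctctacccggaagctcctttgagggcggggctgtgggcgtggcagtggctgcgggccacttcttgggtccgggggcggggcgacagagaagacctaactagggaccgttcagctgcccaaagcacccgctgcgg
Bcl3, chr7:19822706-19823005, minus strand: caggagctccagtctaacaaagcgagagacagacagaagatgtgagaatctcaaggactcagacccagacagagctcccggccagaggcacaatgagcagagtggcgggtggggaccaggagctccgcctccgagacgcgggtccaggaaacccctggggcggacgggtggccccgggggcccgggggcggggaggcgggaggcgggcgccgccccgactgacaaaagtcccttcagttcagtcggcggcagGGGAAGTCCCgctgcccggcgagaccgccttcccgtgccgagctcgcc
Nfkb2 first start, chr19:46304487-46304786, plus strand: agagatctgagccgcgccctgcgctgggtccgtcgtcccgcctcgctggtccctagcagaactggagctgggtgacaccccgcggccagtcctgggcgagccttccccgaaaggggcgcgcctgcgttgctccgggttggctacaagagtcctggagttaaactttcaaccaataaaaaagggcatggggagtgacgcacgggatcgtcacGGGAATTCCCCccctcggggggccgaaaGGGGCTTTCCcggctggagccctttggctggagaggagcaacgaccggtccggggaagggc
In Nfkbia the match lay from -29 to -20 relative to the start, on the opposite strand, and read GGGAATTTCC there. In Nfkbie it lay from -106 to -97 and in Bcl3 from 3 to 12, just after the start. In Nfkb2 the capitals join matches at -39 to -30 and -38 to -29, which overlap, and a separate match lies at -11 to -2. The window of Rel, not printed, held overlapping matches between -92 and -82. A match describes letters only; binding was not measured.

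The p65-/-Ras array stood apart from the other 3 and bears on each comparison that uses it. Probe sets that reached a signal of 200 numbered 11153 on it and 13015 to 13419 on the others. The log2 signals of p65-/-Ras had a correlation of 0.866 with p65-/-RasTumor, 0.804 with p65+/+RasTumor and 0.818 with p65+/+Ras across 10046 genes. The other array pairs lay between 0.9285 and 0.976 (genes are not replicates). Scanner intensities split by genotype instead, with medians of 79.0 and 78.0 for p65-/-RasTumor and p65-/-Ras, against 90.0 and 91.0 for p65+/+RasTumor and p65+/+Ras. Genotype therefore cannot be told apart from scanner brightness, in tumour-derived cells as well. The labelled cell type was checked with 10 fibroblast markers, of which 9 reached the floor on every array and Fap on none, with a summed signal of 43696 to 56561. Between the tumour-derived arrays Col1a1 was 2.91-fold and Fn1 2.37-fold higher and Col3a1 2.05-fold lower in p65-/-RasTumor than in p65+/+RasTumor cells, and the part of this in the results was not tested. The floor is the median signal of an array, 92.7 for p65-/-RasTumor, 87.8 for p65-/-Ras, 92.5 for p65+/+RasTumor and 93.4 for p65+/+Ras. Of 8 macrophage markers 3, 3, 2 and 2 reached it in that order of arrays, with summed signals of 866, 1023, 1369 and 1326. Among them Cd14 gave 219.8 and 329.6 in p65-/-RasTumor and p65-/-Ras cells, against 809 and 743 in p65+/+RasTumor and p65+/+Ras cells. Csf1r (243 and 236, against 198 and 200.3) and Fcgr1 (115 and 108, against 74.1 and 82.4) were higher on the p65-/- arrays. Cd68, Adgre1, Ptprc, Lyz2 and Itgam lay under the floor on all 4, and the part of these markers in the results was not tested. Of 6 endothelial markers only Pecam1 reached the floor, at 99.9 and 94.4 in p65-/-RasTumor and p65-/-Ras cells, with summed signals of 280 to 319 over the 4 arrays. Of 4 measured lymphocyte and granulocyte markers only Cd3e reached it (summed signals 651 to 896). Cd3e did so on all 4 arrays, those from before injection included. It gave 582 and 671 in p65-/-RasTumor and p65-/-Ras cells, against 454 and 475 in p65+/+RasTumor and p65+/+Ras cells. Epithelial markers reached it in 3 of 5 cases in p65-/-RasTumor cells and in 2 of 5 in p65-/-Ras cells, and in none on the p65+/+ arrays (summed signals 301 to 415). In bulk RNA, fewer cells of a type and less RNA per cell cannot be told apart.

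**Figure D1:**
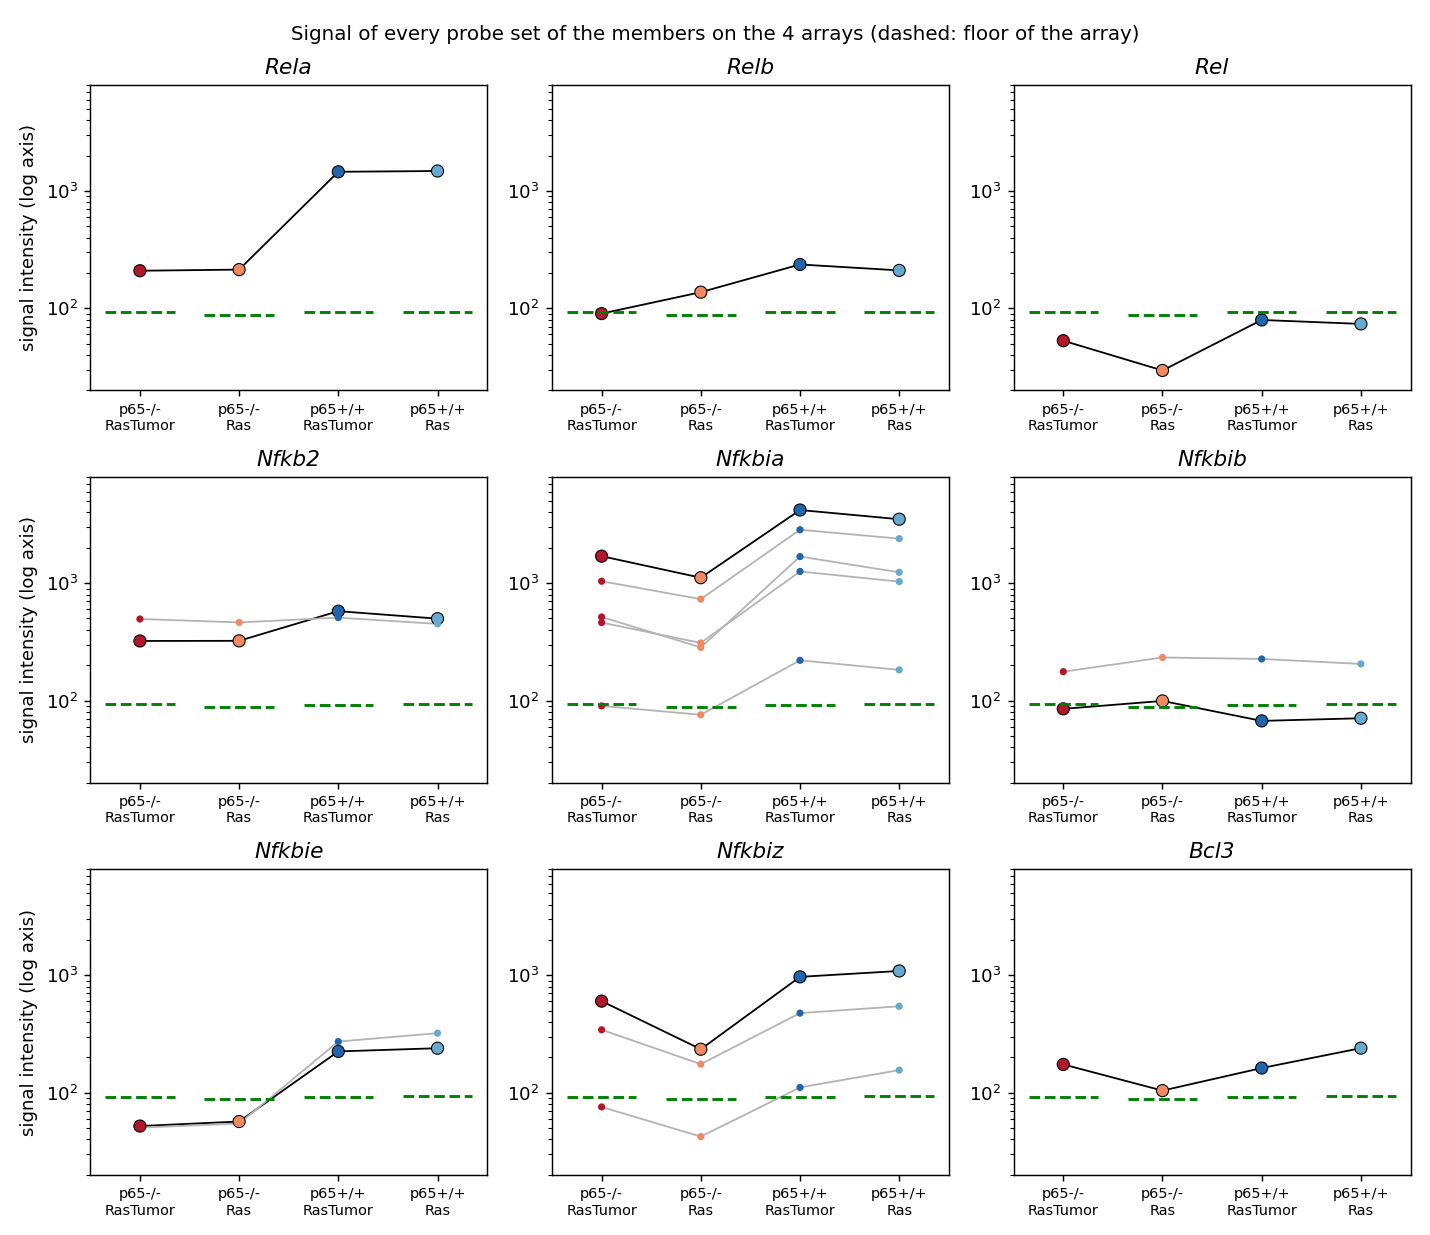
Signal intensity (log axis) of all 18 probe sets of the 9 genes on the 4 arrays, with p65-/- cells on the left. Large outlined points are the probe set that stands for the gene, small points its other probe sets, lines join the points of 1 probe set, and green dashes mark the floor of each array. Rela, Nfkbia and Nfkbie are lower on both p65-/- arrays, Nfkbiz and Bcl3 lowest in p65-/-Ras cells, and Rel lies under the floor on all 4.

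Among the subunits, Rela separated the arrays by genotype. Its probe set gave 209 in p65-/-RasTumor and 214 in p65-/-Ras cells, against 1457 in p65+/+RasTumor and 1479 in p65+/+Ras cells. The difference was 6.96-fold lower in p65-/-RasTumor than in p65+/+RasTumor cells and 6.91-fold lower in p65-/-Ras than in p65+/+Ras cells, and only 48 of 11988 and 128 of 12597 genes compared were lower still. The p65-/- signals nevertheless stayed above the floor, and whether this probe set falls inside the deleted sequence was not checked here.

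Relb, whose protein pairs mainly with p100 and p52, gave 90.3 in p65-/-RasTumor and 137 in p65-/-Ras cells, against 237 in p65+/+RasTumor and 211 in p65+/+Ras cells. It was at least 2.55-fold lower in p65-/-RasTumor than in p65+/+RasTumor cells, the p65-/-RasTumor signal lying just under the floor of 92.7. With the floor at the 70th percentile of each array its log2 difference was -0.32 and no longer 2-fold. In p65-/-Ras against p65+/+Ras cells it was 1.53-fold lower, with both arrays above the floor. The Nfkb2 probe set 1425902_a_at gave 322 in p65-/-RasTumor and 323 in p65-/-Ras cells, against 577 in p65+/+RasTumor and 498 in p65+/+Ras cells, which is 1.79-fold and 1.54-fold lower in p65-/- cells. The other Nfkb2 probe set, 1429128_x_at, whose suffix marks possible cross-hybridization, gave 495 and 463 in p65-/-RasTumor and p65-/-Ras cells, against 508 and 450 in p65+/+RasTumor and p65+/+Ras cells, so the gene's probe sets disagree. Rel, whose product c-Rel is best known in lymphocytes, lay under the floor everywhere, at 53.1 and 29.6 in p65-/-RasTumor and p65-/-Ras cells and 79.7 and 73.7 in p65+/+RasTumor and p65+/+Ras cells, and no fold is given. Before injection, Rela was thus the only subunit of the 3 compared with a 2-fold difference.

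Of the cytoplasmic inhibitors, Nfkbia and Nfkbie were at least 2-fold lower without p65, before injection as well as after, and Nfkbib was not. Nfkbia, which encodes the fast feedback inhibitor IkB-alpha, had a signal of 1697 in p65-/-RasTumor and 1112 in p65-/-Ras cells, against 4195 in p65+/+RasTumor and 3503 in p65+/+Ras cells. Both p65-/- values lie below both p65+/+ values, so the gene remained well above the floor without p65 but at a lower level. The decrease was 2.47-fold in p65-/-RasTumor against p65+/+RasTumor cells and 3.15-fold in p65-/-Ras against p65+/+Ras cells. Nfkbia has 5 probe sets, and the 4 with all arrays above the floor ranged from 2.47-fold to 3.27-fold lower in tumour-derived cells and from 3.15-fold to 4.36-fold lower before injection. The fifth, 1420089_at, gave 90.0 and 75.7 in p65-/-RasTumor and p65-/-Ras cells, both under the floor, against 220.1 and 183 in p65+/+RasTumor and p65+/+Ras cells.

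Nfkbie, which encodes IkB-epsilon, was above the floor on both p65+/+ arrays and under it on both p65-/- arrays. Its probe set 1431843_a_at gave 52.0 in p65-/-RasTumor and 56.8 in p65-/-Ras cells, against 225 in p65+/+RasTumor and 239 in p65+/+Ras cells. The second probe set, 1458299_s_at, gave 50.4 and 54.6 in p65-/-RasTumor and p65-/-Ras cells, against 273 and 322 in p65+/+RasTumor and p65+/+Ras cells. Both probe sets thus showed the same split by genotype. The first was at least 2.42-fold lower in p65-/-RasTumor than in p65+/+RasTumor cells and at least 2.73-fold lower in p65-/-Ras than in p65+/+Ras cells. Those bounds rest on the floor: with the floor at the 70th percentile of each array the log2 differences were -0.24 and -0.57, and neither was 2-fold. Nfkbib, which encodes IkB-beta, stayed within 2-fold. Its probe set 1421266_s_at gave 176 and 233 in p65-/-RasTumor and p65-/-Ras cells, against 226 and 205 in p65+/+RasTumor and p65+/+Ras cells, a 1.28-fold lower and a 1.13-fold higher value. Its other probe set, 1446718_at, stands for the gene in the counts. It reached the floor only in p65-/-Ras cells, at 99.3 against 70.7 in p65+/+Ras cells.

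The nuclear members differed from these in that their lower signal was seen mainly before injection. Nfkbiz, whose product IkB-zeta is needed for a set of secondary inflammatory genes in macrophages, gave 603 in p65-/-RasTumor and 235 in p65-/-Ras cells, against 970.2 in p65+/+RasTumor and 1089 in p65+/+Ras cells. The difference was 1.61-fold lower in p65-/-RasTumor than in p65+/+RasTumor cells but 4.64-fold lower in p65-/-Ras than in p65+/+Ras cells. The probe set 1448728_a_at had the same order, 344 and 175 in p65-/-RasTumor and p65-/-Ras cells, against 476 and 545 in p65+/+RasTumor and p65+/+Ras cells. The third Nfkbiz probe set, 1457404_at, gave 75.7 and 42.3 in p65-/-RasTumor and p65-/-Ras cells, both under the floor. It gave 111 and 156 in p65+/+RasTumor and p65+/+Ras cells. Its bounds, at least 1.20-fold lower in tumour-derived cells and at least 1.775-fold lower before injection, did not reach 2-fold. Bcl3 gave 174 in p65-/-RasTumor and 104 in p65-/-Ras cells, against 162 in p65+/+RasTumor and 239.7 in p65+/+Ras cells. It was 1.07-fold higher in p65-/-RasTumor than in p65+/+RasTumor cells and 2.30-fold lower in p65-/-Ras than in p65+/+Ras cells, where its p65-/- signal lay close to the floor of 87.8. With the floor at the 70th percentile the log2 difference of Bcl3 before injection was -0.57 and no longer 2-fold. After scaling to the 75th percentile it was -0.83, likewise under 2-fold.

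**Figure D2:**
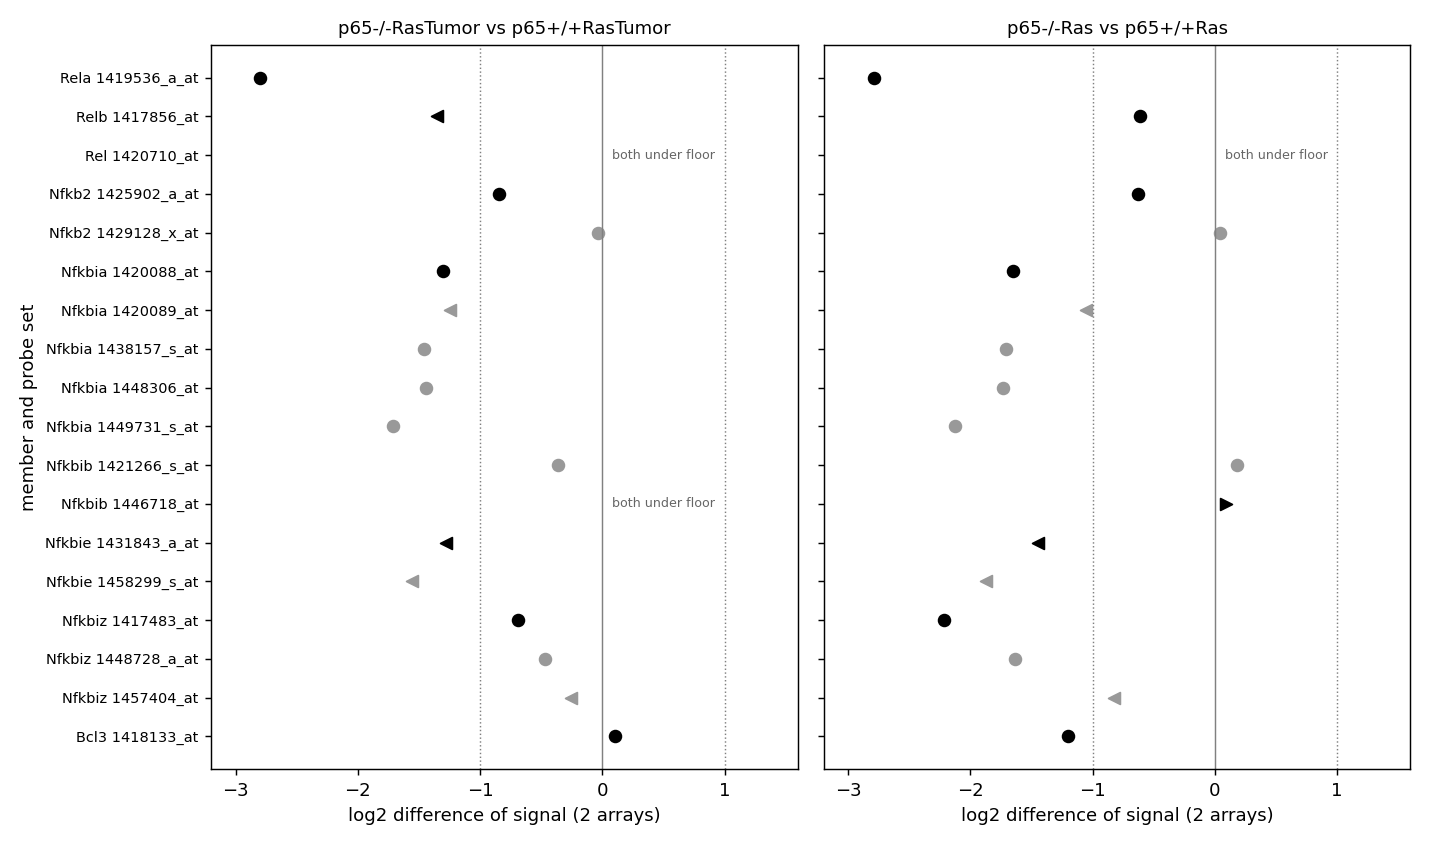
Log2 difference of p65-/- minus p65+/+ signal for each member probe set, in tumour-derived cells (left) and in cells before injection (right). Black symbols are the probe set that stands for the gene, circles are differences with both arrays above the floor, triangles are bounds with 1 array set to its floor, and dotted lines mark 2-fold. Nfkbia lies past the dotted line in all 5 probe sets in both panels, and Bcl3 and 2 of the 3 Nfkbiz probe sets lie past it only in the right panel.

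As a group, 4 of 7 members compared were 2-fold or more lower in p65-/-RasTumor than in p65+/+RasTumor cells (Rela, Relb, Nfkbia and Nfkbie) and 0 were higher. Over all 11988 genes, 5.62% were lower and 2.74% higher by that measure. The median log2 difference was -1.28 for the members and 0.01 for all genes. With the floor at the 70th percentile 2 of 6 members were lower, with a median of -0.76. Before injection, 5 of 8 members compared were 2-fold or more lower in p65-/-Ras than in p65+/+Ras cells (Rela, Nfkbia, Nfkbie, Nfkbiz and Bcl3) and 0 were higher, where 18.1% of 12597 genes were lower and 2.11% higher. The median there was -1.32 for the members and -0.02 for all genes, and with the floor at the 70th percentile 3 of 7 were lower, with a median of -0.63. Rela, the gene by which the genotypes are labelled, is 1 of the lower members in each comparison. Relb and Nfkbie in tumour-derived cells, and Nfkbie before injection, reached the floor only on the p65+/+ array. They entered the counts through the array where they are high, and their differences are bounds. Nfkbib entered before injection only through the p65-/-Ras array, and its difference is a bound as well. The counts and medians are therefore descriptions and do not show a change of the group.

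The higher background before injection goes with the p65-/-Ras array, so that comparison was also made with the p65-/-RasTumor array in its place, which mixes genotype with tumour state. Then 4 of 7 members were lower and 0 higher, with a median of -1.05, where 3.91% of 11980 genes were lower and 1.89% higher. Rela was 7.07-fold, Nfkbia 2.06-fold, Nfkbie at least 2.58-fold and Relb at least 2.27-fold lower, while Nfkbiz was 1.81-fold and Bcl3 1.38-fold lower. The 2-fold differences of Nfkbiz and Bcl3 were therefore seen only with the p65-/-Ras array.

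**Figure D3:**
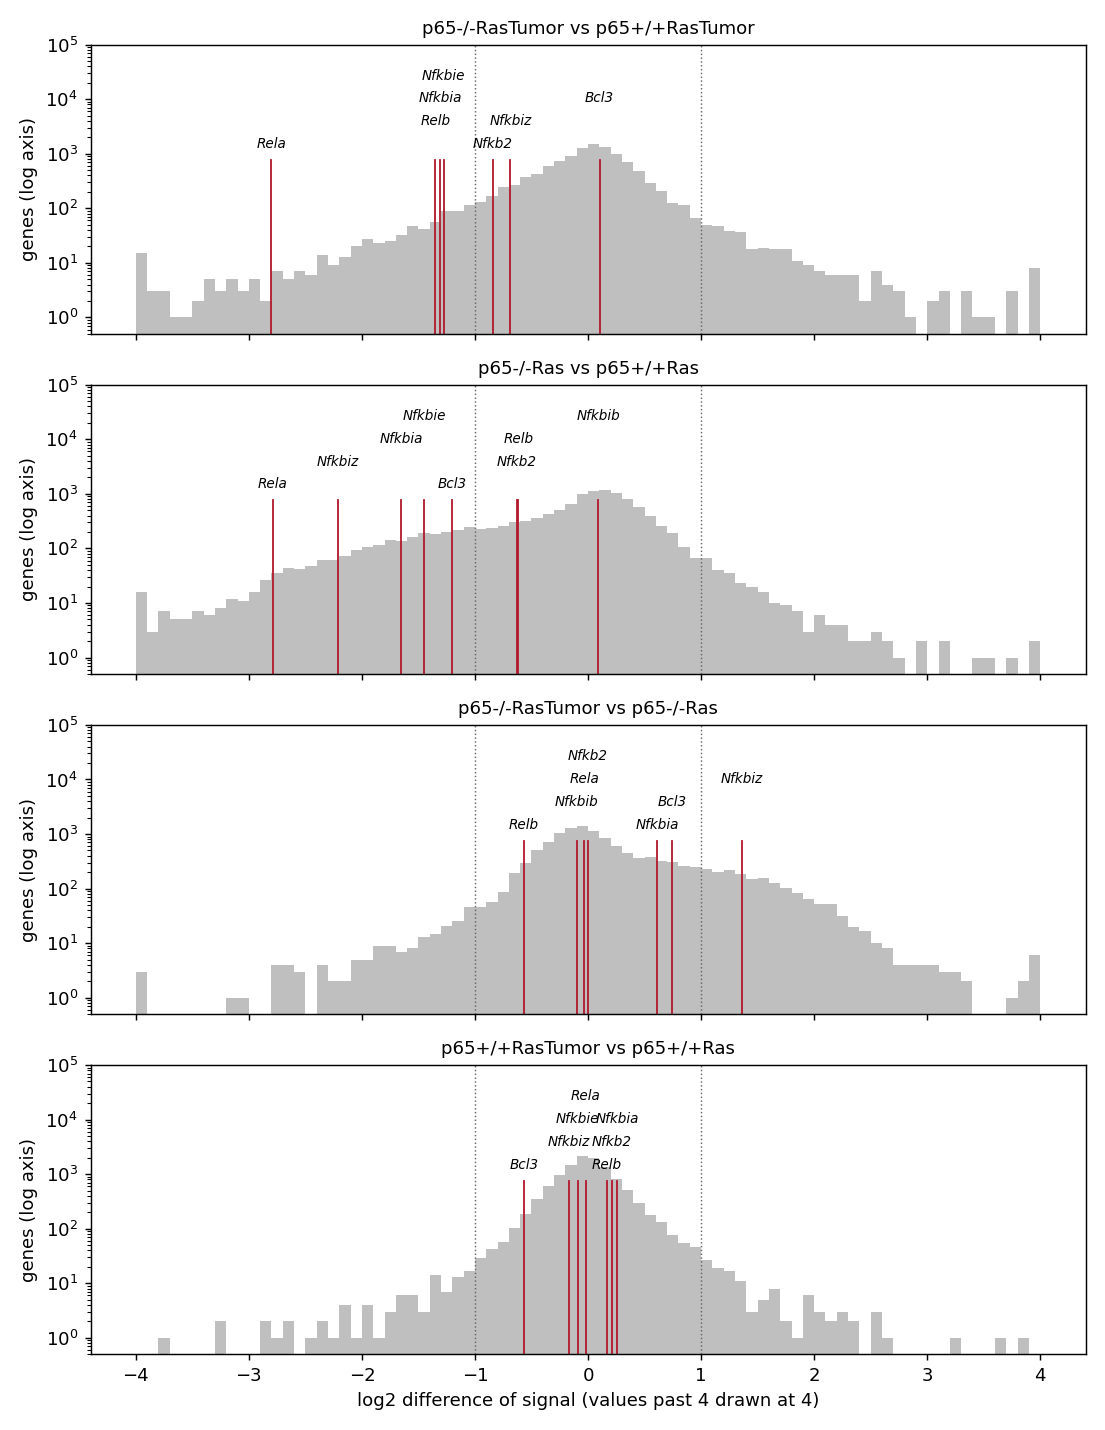
Number of genes (log axis) by log2 difference of signal in each of the 4 comparisons, with the members as red lines and dotted lines at 2-fold. In p65-/-RasTumor against p65+/+RasTumor cells Rela lies at -2.80 and Relb, Nfkbia and Nfkbie between -1.35 and -1.28, whereas in p65+/+RasTumor against p65+/+Ras cells all 7 members compared lie within 2-fold.

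The change from cells before injection to tumour-derived cells was small for the members in the p65+/+ background. In p65+/+RasTumor against p65+/+Ras cells, 0 of 7 members were 2-fold lower (0.777% of 11706 genes) and 0 higher (0.991%), with a median of -0.02 against -0.01 for all genes. Bcl3 had the largest difference, 1.48-fold lower, and 370 of 11706 genes lay lower. Nfkbia was 1.20-fold higher, Nfkb2 1.16-fold and Relb 1.12-fold higher, and Nfkbiz was 1.12-fold lower. Over all 5 Nfkbia probe sets the ratio was 1.19 to 1.36, all on the same side.

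In p65-/-RasTumor against p65-/-Ras cells, 1 of 7 members was 2-fold higher, Nfkbiz at 2.57-fold, and 0 were lower. Over all genes 13.9% of 12444 were higher and 1.50% lower, so the share of members is close to the background. Bcl3 was 1.67-fold and Nfkbia 1.53-fold higher, and Rela was 1.02-fold lower. Nfkb2 was level, at 322 in p65-/-RasTumor and 323 in p65-/-Ras cells. Relb was at least 1.48-fold lower, and only 640 of the 12444 genes lay lower than it. Nfkbiz was 2.57-fold and 1.96-fold higher in its probe sets with all arrays above the floor. These differences share the p65-/-Ras array with the comparison of genotypes before injection, so the low Nfkbiz and Bcl3 signals of that array enter both.

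The tumour changes of the genotypes were set side by side for the 5 members whose representative probe set was above the floor on all 4 arrays. The log2 tumour change in p65-/- cells minus that in p65+/+ cells was 1.53 for Nfkbiz, 1.30 for Bcl3, 0.35 for Nfkbia, -0.01 for Rela and -0.22 for Nfkb2. For Nfkbib it was -0.54 in 1421266_s_at, which was above the floor on all 4 arrays but carries a suffix for possible cross-hybridization. Nfkbiz and Bcl3 were higher in p65-/-RasTumor than in p65-/-Ras cells and lower in p65+/+RasTumor than in p65+/+Ras cells, the p65+/+ changes of Nfkbiz being -0.17 and -0.19 where the spread of this change among probe sets of a gene was 0.19. Among all 10046 genes above the floor on all 4 arrays, 15.2% had a difference of 1 or more on this scale and 2.39% one of -1 or less.

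**Figure D4:**
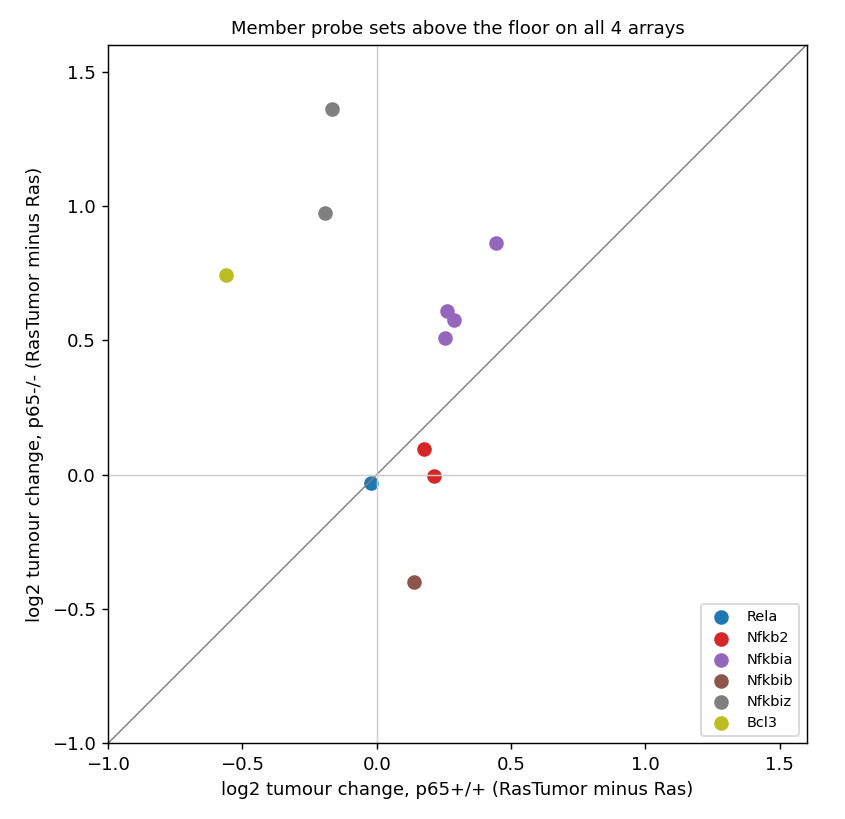
Log2 tumour change in p65-/- cells (vertical axis) against that in p65+/+ cells (horizontal axis) for the 11 member probe sets above the floor on all 4 arrays, coloured by gene, with the line of equal change. Both Nfkbiz probe sets and Bcl3 lie in the upper left part of the plot, the 4 Nfkbia probe sets lie above the line with both changes positive, and Rela lies near 0 on both axes.

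Genes with a pattern most like a member were found among the 10046 genes above the floor on all 4 arrays, by the root mean square difference of log2 signals centred on each gene's mean over the 4 arrays. For Rela the nearest were Mt2 at 0.21, Plpp3 at 0.28, Oxr1 at 0.29 and Dhrs1 at 0.32. Mt2, a metallothionein gene, gave 434 and 501 in p65-/-RasTumor and p65-/-Ras cells, against 2599 and 2385 in p65+/+RasTumor and p65+/+Ras cells. For Nfkbia the nearest were Rpf2 at 0.03 and Ppp3ca, Castor2 and Eny2 at 0.05 to 0.06. Rpf2, a ribosome assembly factor gene, gave 209 and 129 in p65-/-RasTumor and p65-/-Ras cells, against 503 and 420.4 in p65+/+RasTumor and p65+/+Ras cells.

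Other genes of the pathway were taken from fixed lists. The further IkB-type genes Nfkbid and Nfkbil1 were within 2-fold in all 4 comparisons. Of 14 upstream kinases, adaptors and ubiquitin ligases with a probe set, 0 were 2-fold different in p65-/-RasTumor against p65+/+RasTumor cells (median 0.14). In p65-/-Ras against p65+/+Ras cells 5 of 14 were lower and 0 higher (median -0.69), where 18.1% of all genes were lower and 2.11% higher. The lower ones were led by the adaptor gene Tab2 at 3.11-fold, the kinase gene Map3k7 at 2.86-fold and Ikbkg, which encodes the regulatory subunit of the IkB kinase, at 2.79-fold. Map3k7 passed 2-fold in 3 of 5 compared probe sets and Ikbkg in 1 of 6. Tab2, Map3k7, Ikbkg and Tbk1 were the 4 of 14 that were 2-fold higher in p65-/-RasTumor against p65-/-Ras cells, where 13.9% of all genes were higher. That comparison shares the p65-/-Ras array.

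Of 9 nuclear partners with a probe set, 2 were higher and 0 lower in p65-/-RasTumor against p65+/+RasTumor cells, where 2.74% of all genes were higher and 5.62% lower. In p65-/-Ras against p65+/+Ras cells 1 was higher and 4 lower, where 2.11% of all genes were higher and 18.1% lower. Pdlim2, which encodes a ubiquitin ligase known to target nuclear p65 for degradation, was higher in p65-/- cells in both states. Its signal was 967 in p65-/-RasTumor and 995 in p65-/-Ras cells, against 269 in p65+/+RasTumor and 310.4 in p65+/+Ras cells, or 3.60-fold and 3.21-fold higher, in its only probe set. Commd1, a further negative regulator of NF-kB, was 2.16-fold higher in p65-/-RasTumor than in p65+/+RasTumor cells, in both of its probe sets. The 4 lower genes before injection were Hdac2 at 4.52-fold, Crebbp at 2.61-fold, Ep300 at 2.32-fold and Hdac1 at 2.05-fold, histone deacetylase and acetyltransferase genes, and none of them was 2-fold lower in tumour-derived cells. In p65-/-RasTumor against p65-/-Ras cells 2 of 9 were higher and 0 lower, Hdac2 at 3.53-fold (2 of 3 probe sets) and Crebbp at 2.20-fold (1 of 3 compared probe sets). In p65+/+RasTumor against p65+/+Ras cells 0 of 14 upstream genes and 0 of 9 nuclear partners were 2-fold different.

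Of 32 NF-kB target genes outside the family, 13 of 27 compared were lower in p65-/-RasTumor than in p65+/+RasTumor cells and 1 was higher (median -0.71), where 5.62% of all genes were lower and 2.74% higher. In p65-/-Ras against p65+/+Ras cells 14 of 28 were lower and 1 higher (median -0.97), where 18.1% of all genes were lower and 2.11% higher. Of the lower genes, Il6, Mmp3, Lcn2 and Saa3 in tumour-derived cells reached the floor only on the p65+/+ array. So did Birc2, Birc3, Ccl7, Cxcl5, Il6, Lcn2 and Ptx3 before injection. They entered the counts through the array where they are high. The list was chosen with earlier results of these data known, so the counts are descriptions. Among target genes above the floor on both arrays, Ccl2, Ccl7 and Ptgs2 were 6.60-fold, 5.65-fold and 4.52-fold lower in tumour-derived cells. Saa3, Ccl2 and Mmp3 were 14.4-fold, 13.5-fold and 10.7-fold lower before injection. The chemokine genes Cxcl1 in tumour-derived cells, at least 17.7-fold higher, and Ccl5 before injection, 2.85-fold higher, went the other way. Of 26 target genes compared, 5 were 2-fold different in p65+/+RasTumor against p65+/+Ras cells (0.777% of all genes lower, 0.991% higher), with Cxcl5, Saa3 and Mmp3 lower and Ccl5 and Il6 higher. In p65-/-RasTumor against p65-/-Ras cells 8 of 25 were higher and 2 lower, where 13.9% of all genes were higher and 1.50% lower. Cxcl1 was 16.4-fold, the stress-response gene Gadd45b 3.65-fold and Ptgs2 2.85-fold higher, while Ccl5 was 2.71-fold and the metalloproteinase gene Mmp3 at least 6.60-fold lower.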

How the data were processed

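Total RNA (6 ug per sample, Trizol) was labelled with biotin and hybridised to Affymetrix arrays, per the labels. The values used were the series matrix deposited by the authors, linear signal intensities per probe set. Their summary method and scaling are not given in the sources used here. A second table that the authors deposited holds signed quotients of log2 levels, treated as a score and used only as an alternative. Where both signals reached 300, 70.3% to 89.1% of its entries matched such a quotient within 0.02, but over all probe sets only 24.1% to 37.9% did, so it is less certain for weak signals such as those of Bcl3. The scanner intensities deposited by the authors, not normalized per the file headers, served for array-wide medians only; no scan date was found, so no batch could be assigned.

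Signals below 1 were set to 1 and converted to log2. Probe sets were named with the platform annotation of 2016 (34945 had 1 gene, 932 several and 9160 none). Each gene took the brightest of its single-gene probe sets by mean signal, and probe sets ending in _s_at or _x_at were used only where no other existed. A comparison needed 1 of its 2 arrays to reach that array's median (the floor), a signal below the floor was replaced by it, and differences of 2-fold or more were counted. With 1 array per group no test was made, and the number of arrays limits the precision. As a measure of spread, the standard deviation of log2 differences among probe sets of a gene was 0.48 before injection and 0.32 in tumour-derived cells for genotype, and 0.40 and 0.19 for the tumour change in p65-/- and p65+/+ cells. All 9 members were named. From other lists the 3 largest differences with both arrays above the floor, and any gene against the majority, were named; Tbk1, Hdac1 and the target genes of the p65+/+ tumour change were named as members of small counts after their values were seen. The members and lists were chosen with earlier results of these data known. The counting was run on simulated data with large changes planted only in genes well above the floor. Recovery was easy there, and planted changes near the floor were not tried. Python 3.11.15, numpy 2.4.6 and pandas 2.3.3 were used.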

Additional observations from a re-analysis of the deposited data

Results flagged for a closer look

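The tumour change of Nfkbiz and of Bcl3 had opposite signs in the genotypes, and the difference was not tested. For Nfkbiz the p65+/+ change was about the size of the spread among probe sets, which holds no variation between arrays. With 1 array per group the direction is not settled for either gene. For Nfkbiz the log2 change in p65-/- cells minus that in p65+/+ cells was 1.53 in the probe set 1417483_at and 1.17 in 1448728_a_at. The changes themselves were 1.36 and 0.97 in p65-/- cells and -0.17 and -0.19 in p65+/+ cells, where the spread of this change among probe sets of a gene was 0.19. For Bcl3 the difference was 1.30, from changes of 0.74 in p65-/- and -0.56 in p65+/+ cells, neither of them 2-fold. Of all genes above the floor on all 4 arrays, 15.2% had a difference of 1 or more. Each difference rests on 1 array per group, and each includes the p65-/-Ras array, which stood apart, and no value without it can be had.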

How the results depend on the processing

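No paired analysis was possible because each group has 1 array, and for the same reason no replicate could be left out. After quantile normalization, or scaling to the 75th percentile, all genes together had a median log2 difference of 0.24 or 0.35 for p65-/-Ras against p65+/+Ras cells, compared with -0.02 as deposited. That for p65-/-RasTumor against p65-/-Ras cells was -0.18 or -0.25, compared with 0.03. Relative to these shifts Nfkbia was at -1.53 and -1.63 before injection, and Nfkbiz at 1.23 and 1.33 in the p65-/- tumour change. Rela and Nfkbia were 2-fold or more lower in p65-/- cells in all 8 alternatives before injection and all 7 in tumour-derived cells. Some of these left the value unchanged by construction, since both genes lie above either floor and Rela has 1 probe set. Bcl3 before injection was 2-fold or more lower in 5 of 8 alternatives. After scaling to the 75th percentile it was at -0.83, or -1.18 relative to the shift of all genes. With the floor at the 70th percentile, 3 of 7 members were lower before injection and 2 of 6 in tumour-derived cells, with medians of -0.63 and -0.76; Relb was then at -0.32 and Nfkbie at -0.24 in tumour-derived cells, and Nfkbie at -0.57 and Bcl3 at -0.57 before injection. With no floor the median in tumour-derived cells was -0.84, over 9 members. With the log2 differences implied by the authors' deposited table the medians were -1.82 before injection and 0.81 for the p65-/- tumour change. For that tumour change 2 members were then higher, Nfkbiz and Bcl3. These medians leave out members with an array under the floor, Nfkbib and Nfkbie before injection and Relb and Nfkbib for the tumour change. They cover fewer members than the main medians of -1.32 and -0.004, so the shift is not that of the table alone. No 2-fold difference of a member changed its direction under any alternative run. Of 229 alternative values for single members, 214 moved by less than the spread among probe sets of a gene. Many of these could not move. A gene above the floor keeps its value with no floor, and a gene with 1 probe set keeps it in the mean of all probe sets. The count is therefore no measure of robustness. Signals near the floor, as for Relb, Nfkbie and Bcl3, limit these calls.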
